A study of Mus musculus with 3 samples.

Results

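The dermal fibroblasts and dermal papilla cells of mouse skin described here are 225 of the 28351 barcodes in 3 single-cell libraries, of which 26847 passed the filters. Members were chosen by measured values: a barcode needed at most 10% mitochondrial UMIs (unique molecular identifiers, the counted RNA molecules), at least 200 genes, at least 2 UMIs in each of at least 3 of Col1a1, Col1a2, Col3a1, Dcn and Lum, no UMI of the leukocyte gene Ptprc, and under 1% of its UMIs in keratin genes. The levels of these genes in members are therefore a description and support nothing.

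The study is of alopecia areata, an autoimmune hair loss, and of an antibody that blocks the chemokine CXCL12. Its groups are Neg (unaffected C3H/HeN mice given vehicle), AA (C3H/HeN mice of the alopecia areata model) and AA+Ab (the same model treated with a CXCL12-neutralizing antibody), all females at 25 weeks. The model is made by transferring lymph node cells of affected donors, expanded in culture, into healthy mice of the strain. Each group is 1 library made from the pooled dorsal skin of several mice, digested with collagenase and passed over a density gradient, so no test between groups is possible and every interval below covers counting error only.

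Dermal fibroblasts secrete the collagens and proteoglycans of the skin and also cytokines, chemokines and complement that reach leukocytes. The dermal papilla is a knot of specialised fibroblasts at the base of the hair follicle whose Wnt ligand amplifiers, BMP inhibitors and growth factors instruct the follicle epithelium, and the dermal sheath around the follicle is contractile and gives rise to papilla cells. In alopecia areata, T cells that make interferon gamma collect around the hair bulb, and interferon raises MHC class I on follicle cells.

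In Neg, AA and AA+Ab, the order used for all values below, members numbered 43, 133 and 49 of 6582, 10433 and 9832 kept barcodes. These are shares of 0.653% (95% Clopper-Pearson interval 0.473 to 0.879), 1.27% (1.07 to 1.51) and 0.498% (0.369 to 0.658). The AA share was the highest, and its interval did not overlap those of the other libraries, but the yield of fibroblasts from each digestion cannot be told apart from the group. The libraries held 121289374, 137290217 and 141998364 UMIs and their members 420927, 945051 and 461187 UMIs, with a median of 8332, 5711 and 8052 UMIs and 3008, 2419 and 2887 genes a member. AA members were the shallowest. The median mitochondrial share of members was 2.22, 2.16 and 2.04%. The largest cell supplied 12.0, 3.41 and 8.86% of the member UMIs, so single cells weigh most in Neg. Neg and AA shared 18 barcodes, Neg and AA+Ab 17, and AA and AA+Ab 28, none of them members.

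Pdgfra, a fibroblast marker that the rule did not use, had a UMI in 36, 107 and 43 members (83.7, 80.5 and 87.8%) and in 0.286, 0.502 and 0.166% of Ptprc barcodes (at least 1 UMI of Ptprc and under 1% keratin). All 12 fibroblast markers outside the rule, among them Bgn and Vim, were found in every library, at a summed 8548, 8959 and 7305 CPM (the UMIs of a gene per 1000000 UMIs of the same cells), with Vim, an intermediate filament, the most abundant. Barcodes with at least 1% keratin held 45.7, 46.0 and 50.1 CPM and Ptprc barcodes 1107, 1584 and 1239.9 CPM, both kinds having under 2 rule markers. Rule markers summed to 18466, 26493 and 15887 CPM, led by Dcn, a proteoglycan that binds collagen. Markers of the dermal papilla summed to 494, 658 and 3489 CPM and those of the dermal sheath to 164, 763 and 340.4 CPM. In Neg, Notum, Sox2 and Prom1 of the 12 papilla markers had no UMI, in AA none was missing, and in AA+Ab Prom1 was. The sheath marker Cnn1 had no UMI in any library.

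Among kept barcodes without Ptprc and with under 1% keratin, 25, 36 and 24 had only 2 rule markers at 2 UMIs and stayed outside, 4, 29 and 13 had 3, and all 5 were found in 35, 86 and 25. Barcodes with a single rule marker numbered 846, 963 and 1318, and the marker was Dcn in 825, 918 and 1281 of them. Keratin alone kept out 10, 8 and 7 barcodes and a Ptprc UMI alone 1, 1 and 0.

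The markers of other cell types were summed in the same way. T cell markers summed to 7.13, 4.23 and 10.8 CPM (Trbc2 the most abundant in Neg and AA+Ab, Cd3g in AA, with Cd3d and Cd8a at 0 in all libraries) against 2934, 2534 and 3446 CPM in Ptprc barcodes, and myeloid markers to 14.3, 23.3 and 15.2 CPM (Cd74 first) against 3695, 5182 and 3703 CPM. Endothelial markers reached 21.4, 12.7 and 17.3 CPM, led by Kdr, with Cdh5, Flt1, Tie1, Emcn and Cldn5 of 8 at 0 in every library, and pericyte markers 68.9, 86.8 and 73.7 CPM, led by Cspg4, with Higd1b of 8 at 0 in all libraries and Rgs5 at 0 in AA and AA+Ab. Among Schwann markers, 4, 4 and 3 of 6 were found, at a summed 57.0, 70.9 and 78.1 CPM, with Sox10 at 0 throughout. Keratinocyte markers other than keratins were all 9 found, at 1281, 889.9 and 739 CPM with Sfn the most abundant, against 9532, 12053 and 9986 CPM in barcodes with at least 1% keratin. Melanocyte markers, 5 of 5 in each library, summed to 252, 87.8 and 182 CPM, with Dct first in Neg and AA+Ab and Pmel in AA, and skeletal muscle markers, 6, 6 and 5 of 6, to 92.7, 105 and 32.5 CPM, with Acta1 first. Satellite cell markers came to 4.75, 44.4 and 295 CPM, all from Chodl, which is also a gene of the papilla-like cluster described below, except for 1 UMI of Calcr in Neg, with Pax7, Myf5 and Myod1 at 0. Mast cell markers summed to 16.6, 3.17 and 15.2 CPM, with Cma1 first in Neg and Kit in AA and AA+Ab, and hemoglobin genes to 2.38, 3.17 and 2.17 CPM. Adipogenic markers summed to 869.5, 533 and 431 CPM, led by Lpl, with Adipoq and Plin1 at 0. Neg members thus held the most keratinocyte and melanocyte RNA. The part of this in the differences below was not tested beyond 3 settings. These left out the keratinocyte-gene cluster described below, members with at least 0.5% keratin, or scored doublets.

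Clustered together, the members fell into 7 groups, described here by the genes that set them apart, which is no test because the same genes made the clusters. The dermal papilla-like cluster was led by Dcc, a netrin receptor, by Sostdc1, a secreted BMP and Wnt inhibitor, by Crabp1, and by the R-spondins Rspo2 and Rspo3, which amplify Wnt signals, and 9 of 12 papilla markers were at least 2-fold over the other members (Corin, Alx4, Sox2, Rspo3, Hhip, Alpl, Fgf10, Nrg2 and Inhba). It held 3, 8 and 13 cells, which are 6.98, 6.02 and 26.5% of the members and 4.60, 6.74 and 34.6% of their UMIs. Its rule markers summed to 2862 CPM, against 29324 CPM in the largest cluster.

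The dermal sheath-like cluster (3, 23 and 10 cells) was led by Acta2, smooth muscle actin, with Stmn2, Lrrc15, Ednrb and Tagln, and 5 of 6 sheath markers were at least 2-fold over the other members. A fascial and adventitial-like cluster (7, 18 and 5 cells) had all 8 of its markers, such as Pi16, Dpp4 and Cd34, at that level and was led by Smpd3, Anxa3 and Nkain2. A reticular-like cluster (13, 28 and 4 cells) had Mgp, Cilp and Tnxb of 6 reticular markers 2-fold up and was led by the matrix genes Thbs4, Hmcn2 and Col8a1. It also had the fascial markers Pi16 and Mfap5 2-fold up. Its fascial markers summed to 5900 CPM and its reticular markers to 5716 CPM, so its name is loose. The largest cluster (12, 35 and 10 cells) was led by Cxcl13, a chemokine for B cells, with Csmd1, Inmt, the oxysterol hydroxylase Cyp7b1 and Cxcl12. A cluster of 2, 12 and 5 cells was led by Grem1, a BMP inhibitor, with Cdh4 and Igfbp2, and had the highest rule marker sum, at 86018 CPM.

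The last cluster (3, 9 and 2 cells) was led by Fgfbp1, Krt15, Top2a and Trp63, had all 9 keratinocyte markers at least 2-fold over the other members, and 8 of its 14 cells were scored as doublets by a simulated-doublet score. Its median depth was 21245 UMIs, and it supplied 23, 16.1 and 16.1% of the member UMIs. It does not carry a pure fibroblast profile and is called the keratinocyte-gene cluster below. It is left in as the rule demands, and values without it are given for some results below.

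**Figure D1:**
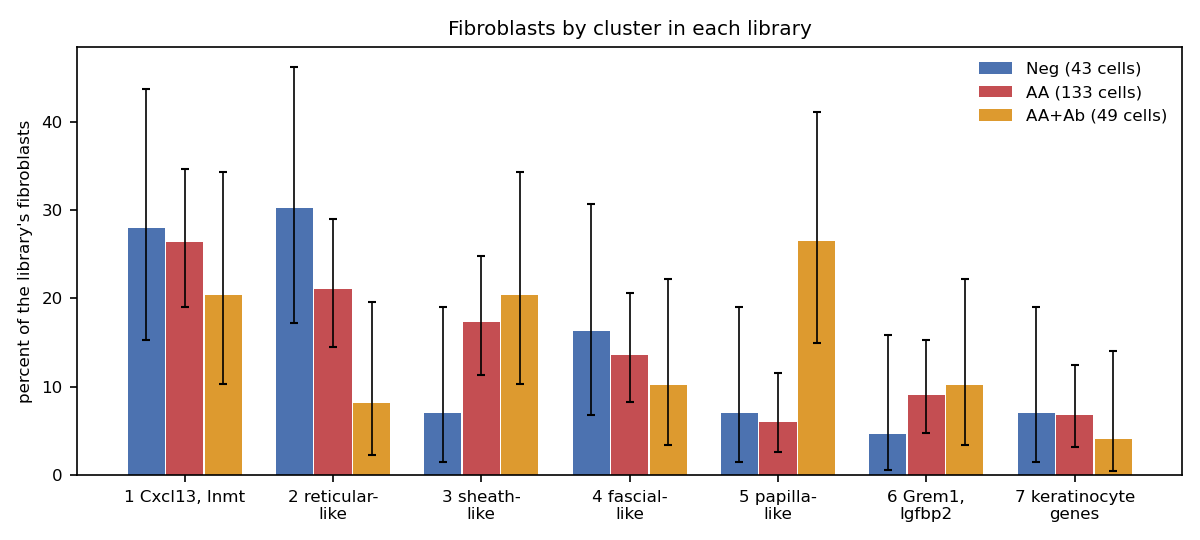
Share of the members of each library in each of the 7 clusters, in percent of cells, with exact 95% Clopper-Pearson intervals as error bars and the number of cells in the legend. The dermal papilla-like cluster holds 26.5% of AA+Ab members and 6.98% and 6.02% of Neg and AA members.

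What differs between fibroblasts of alopecia areata skin and of unaffected skin is the question of AA against Neg. AA members held more RNA of the contractile genes of the dermal sheath, with Acta2 at 1, 375 and 26 UMIs and Tagln, an actin-binding protein of smooth muscle, at 2, 113 and 21 UMIs. Barcodes with sheath markers, members or not, were 0.243% of those kept in Neg and 0.0958% in AA. The rule left out 15 of them in Neg and 3 in AA. AA members also held more of the papilla genes Sostdc1 and Edn3 and of the interferon-inducible GTPase Iigp1, while Cxcl14, a chemokine of resting skin, was lower. A gene counts as past the fold when its log2 ratio of CPM plus 10 is at least 1 in size and the counting interval of its ratio leaves out 1, among the 3830 genes with a mean of at least 50 CPM over the 3 libraries. A gene can reach that mean through the 1 library in which it is highest, and the genes for which this holds are counted for each comparison. Outside the gene lists used below, Negr1, C1qtnf3 and Fbln7 were tested because of their AA level. Nrg3, Cs, Ptgds, Baz1a, F3, Nkain2, Kalrn and Plau were tested because of their Neg level. The AA+Ab level did so for Prlr, Chodl, Lamc3, Rbfox1, Trpm3, Kcnip4, Kcnq3, Cenpf, Adgrb3, Pappa2, Mgat4c and Ecrg4. The log2 ratio of the comparison at hand stands in parentheses after the values of a gene. Here 64 genes were past the fold upward (1.67% of those tested) and 50 downward (1.31%), of which 27 and 22 would not reach that mean without their highest library.

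Of the 14 tested TGF-beta targets and contractile genes, 6 were higher past the fold and none lower, with a median log2 ratio of 0.88 beside -0.01 over all tested genes. Acta2, Tagln and Thbs1, 3 of the 6, were tested because of their AA level, and 4 were higher without the keratinocyte-gene cluster. Acta2 (ENSMUSG00000035783, GRCm38 chromosome 19, bases 34241090 to 34255590, minus strand) had CPM of 2.38, 397 and 56.4, a ratio with a counting interval of 29.8 to 6615 that rests on 1 UMI in Neg. Of the 375 AA UMIs, 368 lay in the sheath-like cluster and 51.2% in 1 cell. Neg barcodes with Acta2 that did not meet the rule are described at the end. Tagln had a log2 ratio of 3.13, resting on 2 Neg UMIs (interval of the ratio 6.81 to 210.3), with 107 of its AA UMIs in the same cluster. Lrrc15, a membrane protein that TGF-beta induces in fibroblasts, was at 10, 97 and 66 UMIs (1.74), Thbs1, a matrix protein that activates TGF-beta, at 17, 108 and 26 UMIs (1.30), Myl9, a myosin light chain, at 29, 142 and 60 UMIs (1.02), and Tpm2, a tropomyosin, at 24, 118 and 57 UMIs (1.01). Tgfbi stayed just short of the fold at 96, 414 and 107 UMIs (0.91). With the clusters given the same weight in every library the list median was 0.43.

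Col11a1, a minor fibril collagen, had 13, 129 and 76 UMIs (1.84) and was the only collagen past the fold of 14 tested outside the rule, whose median log2 ratio was -0.12. Lamc3, a laminin chain of basement membranes, had 3, 51 and 42 UMIs (1.90, interval of the ratio 2.45 to 37.9). Igfbp2, which binds insulin-like growth factors, had 0, 129 and 96 UMIs, which is at least 19.2-fold higher in AA against a floor of 3 counts in Neg, its counting interval having a lower limit of 15.4. Over all libraries 160 of its UMIs lay in the Grem1 cluster, where 31.6% of cells had one. Neg had only 2 cells in that cluster, so its 0 rests on few cells. The AA UMIs of Igfbp2 came from 9 cells, 29.5% of them from 1 cell. Igfbp4, of the same family, was at 68, 411 and 216 UMIs (1.37), and Edn3, a peptide that acts on melanocytes, at 3, 86 and 201 UMIs (2.56, interval of the ratio 4.23 to 63.1). Igfbp2, Igfbp4 and Edn3 alone were past the fold among 17 tested growth factor genes for the follicle, whose median was -0.01.

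Wnt, BMP and hedgehog genes had 2 of 16 tested past the fold, both upward, and a median of 0.35, but 0 higher and 1 lower of 12 tested without the papilla-like cluster. Hhip, and in the growth factor list Edn3, were tested because of their AA+Ab level. Wif1, which binds Wnt ligands outside the cell, had 13, 85 and 221 UMIs (1.29), and Hhip, which binds hedgehog ligands, 4, 48 and 141 UMIs (1.64). Outside that list, Corin, a protease that marks the papilla, had 21, 147 and 381 UMIs (1.47), all 21 Neg UMIs lying in 1 cell of the papilla-like cluster. Sostdc1 (ENSMUSG00000036169, GRCm38 chromosome 12, bases 36314139 to 36318452, plus strand) had 37, 398 and 1000 UMIs (2.14) and 369 of its AA UMIs in that cluster. Other genes in this direction that lay mostly in that cluster in AA and AA+Ab were Prlr, the prolactin receptor (3, 63 and 134 UMIs), Chodl, a lectin (1, 42 and 136 UMIs), and Rbfox1, a splicing regulator (4, 54 and 79 UMIs), with log2 ratios of 2.16, 2.14 and 1.78 and ratio intervals of 3.06 to 46.6 for Prlr and 3.18 to 756 for Chodl. Only 3 Neg cells make up this cluster, so Neg levels of its genes rest on few cells, and barcodes with papilla markers that did not meet the rule are described at the end.

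Interferon response genes were mostly too low to test: 4 of 32 reached 50 CPM, and 1, tested because of its AA level, was past the fold. Iigp1 (ENSMUSG00000054072, GRCm38 chromosome 18, bases 60376027 to 60392634, plus strand) had 9, 136 and 12 UMIs (2.29), with 29 AA UMIs in the largest cluster and 75 in the reticular-like cluster. A single cell of the reticular-like cluster held 32.4% of the AA UMIs. Barcodes with at least 1% keratin had Iigp1 at 0.578, 68.8 and 6.81 CPM and Ptprc barcodes at 2.82, 17.2 and 2.85 CPM, so AA was highest in each kind of barcode. Irf1, an interferon-induced transcription factor, had 56, 168 and 53 UMIs, 133, 178 and 115 CPM, and was not past the fold (0.39). Among 8 tested MHC class I genes the median was 0.63, with 7 above a ratio of 1 and H2-D1 past the fold at 420.5, 876 and 546 CPM (1.04), though none was past it without the keratinocyte-gene cluster. Without the papilla-like cluster 1 of 8 was higher (median 0.69), and without both of these clusters 2 of 10 were (0.44). H2-K1 was at 273, 497 and 262 CPM (0.84) and B2m, the light chain of MHC class I, at 689, 1149 and 707 CPM (0.73). None of the 6 MHC class II genes reached 50 CPM, their sum being 26.1, 34.9 and 45.5 CPM.

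Socs3, a feedback inhibitor of JAK-STAT signals, was the only gene past the fold of 8 tested in its list (median -0.15), at 249, 521 and 401 CPM (1.03). In the RIPK1 list 3 of 10 genes were tested, with a median of 0.05. Cflar, the inhibitor of caspase 8 that holds back death signals, was at 47.5, 108 and 75.9 CPM (1.04), and no gene of the list was past the fold without the papilla-like cluster. Ripk1 itself, the kinase at the fork between survival and death, had 28, 54 and 20 UMIs, 66.5, 57.1 and 43.4 CPM, with no fold in any comparison (-0.19 here, -0.33 for AA+Ab against AA and -0.52 for AA+Ab against Neg). Its partners Ripk3 and Mlkl, which carry out necroptosis, had 1, 3 and 3 UMIs and 2, 7 and 3 UMIs, too few to test.

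In the chemokine list 5 of 21 genes were tested, with a median of -0.43 and Cxcl14 past the fold downward at 1109, 538 and 692 CPM (-1.03). With the papilla-like and keratinocyte-gene clusters out, 1 was higher and 1 lower of 7 (median -0.050). The reticular-like cluster held 345, 274 and 84 UMIs of the 467, 508 and 319 UMIs of Cxcl14. The matrix glycoproteins had 3 higher and 0 lower past the fold of 28 tested (median log2 ratio 0.19), namely Thbs1, Sparc, a collagen-binding protein, at 1599, 3342 and 2419.8 CPM (1.06), and Vcan, a proteoglycan of the papilla, at 178, 376 and 1128 CPM (1.04). Vcan turned to -0.16 without the papilla-like cluster, and the list had 0 higher and 1 lower without the keratinocyte-gene cluster and 1 and 2 without both. Matrix processing genes had none past the fold of 24 (median 0.07), complement none of 8 (0.18) and cytokines none of 4 (-0.31).

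Of the 22 immediate-early and heat shock genes, Hspa1a, an inducible chaperone, was past the fold upward at 877, 1777 and 553 CPM (1.01), and the median was 0.36. Without the keratinocyte-gene cluster 7 of 22 were higher and the median was 0.89, and without the papilla-like cluster as well 10 were (0.92). The immediate-early transcription factor Fos was at 1946, 3224 and 2444 CPM (0.73). Other genes that were higher in AA were C1qtnf3, a secreted protein, at 7, 118 and 27 UMIs (2.34), Cyp2f2, a cytochrome P450, at 12, 153 and 37 UMIs (2.16), both with more AA UMIs in the Grem1 cluster than in any other, and Negr1, a cell adhesion protein, at 4, 98 and 23 UMIs (2.54).

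For most of the genes with the lowest ratios in AA, most Neg UMIs lay in the keratinocyte-gene cluster or in 1 cell. Fabp5, a fatty acid binding protein of keratinocytes, had 404, 115 and 626 UMIs (-2.88), 348 of the Neg UMIs in that cluster, and was the lipid gene past the fold of 8 tested (median 0.33), with none past it without that cluster. The proliferation genes Ube2c (49, 15 and 58 UMIs), Dut (44, 20 and 67 UMIs), Pclaf (42, 19 and 51 UMIs) and Stmn1 (163, 133 and 232 UMIs) had log2 ratios of -2.29, -1.88, -1.87 and -1.40, and 42, 26, 34 and 143 of their Neg UMIs lay in the keratinocyte-gene cluster. Cell cycle genes had 0 higher and 1 lower past the fold of 4 tested (median log2 ratio -0.87), and 0.0019 with scored doublets out, and none of 2 without the keratinocyte-gene cluster. Without that cluster Stmn1 and the homeodomain gene Cux1 (117, 82 and 162 UMIs, -1.57) each turned to 0.027. Cs, citrate synthase, and the metal-binding Mt2 had log2 ratios of -1.69 and -1.38 with 37 of 57 and 214 of 301 Neg UMIs there.

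A single Neg cell held 90.9% of the UMIs of the growth factor gene Nrg3 (55, 1 and 19 UMIs), 84.4% of those of the adhesion gene Ncam2 (45, 30 and 179 UMIs), 96.8% of those of the nonagouti gene a, which sets coat pigment (126, 98 and 136 UMIs), and 54.7% of those of the chromatin gene Baz1a (53, 36 and 25 UMIs). The Nrg3 ratio of AA to Neg has a counting interval of 0.000201 to 0.0470. Their log2 ratios were -3.67, -1.49, -1.44 and -1.50, and with at most 5% mitochondrial UMIs Nrg3, Ncam2 and a turned to 0.15, 1.37 and 2.70. Less dependent on those cells were Tll1, a protease that processes procollagen (133, 100 and 19 UMIs, -1.49), with 91 Neg and 61 AA UMIs in the fascial-like cluster, F3, tissue factor, which starts clotting (68, 49 and 21 UMIs, -1.47), and Ptgds, which makes prostaglandin D (35, 20 and 22 UMIs, -1.58). F3 and Ptgds were tested because of their Neg level. Ptgds was at 266, 129.9 and 133 CPM in Ptprc barcodes, above its level in members of 83.1, 21.2 and 47.7 CPM.

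With 1 pooled library a group, differences between AA and Neg mice and between the preparations cannot be told apart. Thinning every member to 2000 UMIs gave 81 genes higher and 111 lower, and 51 and 53 were past the fold with each cell weighted equally, 58 and 64 with at least 4 rule markers and 45 and 56 with the same mix of clusters. Which direction holds more genes thus depends on the processing.

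The effect of the antibody in the model is the question of AA+Ab against AA. AA+Ab members held more RNA of papilla genes: Corin (ENSMUSG00000005220, GRCm38 chromosome 5, bases 72300025 to 72504473, minus strand) had 21, 147 and 381 UMIs, Rspo3 25, 103 and 357 UMIs, and Fgf7, a growth factor for keratinocytes, 89, 199 and 500 UMIs. Barcodes with papilla markers, members or not, were 0.240% (95% interval 0.155 to 0.354) of those kept in AA and 0.285% (0.189 to 0.411) in AA+Ab, and are described at the end. AA+Ab members held less of the chaperone gene Hsph1 (ENSMUSG00000029657, GRCm38 chromosome 5, bases 149614287 to 149636376, minus strand), which had 71, 304 and 15 UMIs, less of Iigp1 and less of Thbs4. Past the fold were 190 genes upward (4.96% of those tested) and 227 downward (5.93%), of which 80 and 42 reach the mean of 50 CPM through their highest library alone. Leaving out the papilla-like and the keratinocyte-gene clusters left 56 upward and 145 downward, and the same mix of clusters in every library gave 41 and 113. Thinning to 2000 UMIs gave 201 upward and 186 downward, and leaving mitochondrial, ribosomal, hemoglobin and collagen genes out of the denominator 263 and 256, so which direction holds more genes depends on the processing.

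Wnt, BMP and hedgehog genes had 10 of 16 tested higher and 1 lower, with a median log2 ratio of 1.28 beside -0.02 over all tested genes, Hhip being tested because of its AA+Ab level. The R-spondins led: Rspo2 at 34, 62 and 253 UMIs (2.89) and Rspo3 (2.72) lay almost wholly in the papilla-like cluster, with 252 and 356 of their AA+Ab UMIs. A single cell held 69.4% of the AA UMIs of Rspo2 and 41.7% of those of Rspo3. Among secreted inhibitors, Wif1 had 13, 85 and 221 UMIs (2.29), Hhip 4, 48 and 141 UMIs (2.38), and Sfrp1 76, 150 and 277 UMIs (1.86), and outside the list Sostdc1 had 37, 398 and 1000 UMIs (2.34) and Corin a log2 ratio of 2.34. Inhba, an activin subunit, had 27, 81 and 147 UMIs (1.78), and Lef1, a transcription factor of the Wnt pathway, 42, 77 and 98 UMIs (1.28). Sfrp4, a Wnt inhibitor, was the gene that was lower, at 44, 131 and 18 UMIs (-1.60), with 104 AA UMIs in the fascial-like cluster. Without the papilla-like cluster 2 were higher and 2 lower of 12 tested and the list median was 0.14, and it was 0.078 when members needed 4 rule markers.

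Growth factors for the follicle had 6 of 17 tested past the fold, all upward, and a median of 0.46, but 2 of 14 (0.28) without the papilla-like cluster. With the keratinocyte-gene cluster out as well, 4 of 14 were higher (0.50). Edn3 and Nrg2, 2 of the 6, were tested because of their AA+Ab level. Fgf7 was at 211, 211 and 1084 CPM (2.31) and Fgf10, which like Fgf7 acts on epithelium, at 207, 163 and 696 CPM (2.03). Edn3 had 3, 86 and 201 UMIs (2.14), Nrg2, an ErbB ligand, 19, 25 and 161 UMIs (3.30), the heparin-binding factor Mdk 44, 107 and 162 UMIs (1.55) and Igfbp3 293, 392 and 436 UMIs (1.17). For Nrg2, 64% of the AA UMIs came from 1 cell. Igfbp3 differed from the rest in lying outside the papilla-like cluster, with 150 and 189 of its AA+Ab UMIs in the largest and the sheath-like cluster.

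Within the papilla-like cluster, of 3, 8 and 13 cells, levels can be read without the change in its share, though its genes defined it. Corin stood at 1085, 1789 and 2285 CPM there, Rspo3 at 1291, 1381 and 2228 CPM and Fgf7 at 2376, 1899 and 2923 CPM. AA and AA+Ab were closer in these cells than in the pooled members, and Sostdc1 ran at 1859.5, 5791 and 6228 CPM. Edn3 was at 155, 1271 and 1239 CPM in them, lowest in Neg, with 3 UMIs. Vcan was at 1239.7, 4017 and 3042 CPM, and over all members it had 75, 355 and 520 UMIs (1.56), but with the same mix of clusters -0.33.

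Other genes with high ratios lay mostly in the papilla-like cluster in AA+Ab. Dcc had 85, 131 and 386 UMIs (2.51), every UMI in the papilla-like cluster, Ncam2 45, 30 and 179 UMIs (3.25), and Ptprz1, a receptor phosphatase, 30, 46 and 244 UMIs (3.20). The ion channel genes Trpm3 (24, 35 and 176 UMIs), Kcnq3 (4, 14 and 78 UMIs) and Kcnip4, a channel-interacting protein (28, 23 and 110 UMIs), had log2 ratios of 3.06, 2.85 and 2.86. For Kcnip4, 95.7% of AA and 54.5% of AA+Ab UMIs came from 1 cell each, and for Ncam2 53.3% of AA UMIs came from 1 cell. Adgrb3, an adhesion receptor, had 15, 33 and 123 UMIs (2.62), the lectin gene Chodl 1, 42 and 136 UMIs (2.49), Pappa2, a protease that frees insulin-like growth factors, 28, 31 and 104 UMIs (2.46), and the glycosyltransferase gene Mgat4c 20, 13 and 54 UMIs (2.42). Without the papilla-like cluster Nrg2, Ptprz1, Kcnip4, Kcnq3, Rspo3, Adgrb3, Chodl, Mgat4c, Inhba, Lef1 and Sostdc1 turned downward.

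Immediate-early and heat shock genes had 8 of 22 tested lower and none higher, with a median of -0.75. With the papilla-like cluster left out, 3 were lower and none higher (median -0.66), and without the keratinocyte-gene cluster as well 4 and 1 (-0.59). Hsph1, a chaperone of the large HSP70 family, was at 169, 322 and 32.5 CPM and 9.89-fold lower (95% counting interval 5.90 to 17.9) in AA+Ab. Hspa1a (ENSMUSG00000091971, GRCm38 chromosome 17, bases 34969190 to 34972156, minus strand) was at 877, 1777 and 553 CPM (-1.67) and its near copy Hspa1b at 584, 1046 and 317 CPM (-1.69), though reads of so similar a pair are hard to assign. Hsp90aa1, the inducible HSP90, was at 732, 1019 and 492 CPM (-1.03) and Hspb1, a small heat shock protein, at 672, 683 and 269 CPM (-1.31). AA was the highest of the 3 libraries for each of these, with Neg and AA close together for Hspb1. Of the immediate-early genes, Atf3 was at 1017, 868 and 358 CPM (-1.25), Klf2 at 211, 205 and 82.4 CPM (-1.22) and Btg2, an antiproliferative gene, at 579.7, 768 and 362 CPM (-1.06). Atf3 and Klf2 were highest in Neg.

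Hsph1 was also lowest in AA+Ab outside fibroblasts, at 49.5, 54.5 and 26.8 CPM in barcodes with at least 1% keratin and 121, 247 and 85.1 CPM in Ptprc barcodes, and Hspa1a at 497, 394 and 226 CPM and 456, 604 and 282 CPM. With 1 library a group, the preparation cannot be told apart from the treatment.

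The promoters of heat shock genes are shown because Hsph1, Hspa1a, Hspa1b, Hspb1 and Hsp90aa1 were all lower in AA+Ab. Of 6 heat shock genes looked up in the RefSeq promoter table (GRCm38.p6), 5 were in it, Hsp90aa1 not, and 3 held the heat shock element core GAANNTTC, a letter pattern that reads the same on both strands, within 250 bases before the gene start. It occurs in 2199 of all 32851 promoters (6.69%). In Hspb1 it starts 117 and 97 bases before the gene start, with no overlap, and in Hspa1b and Hspa1a 104 bases before it, while Hsph1 and Dnajb1 have none in the window. Each stretch runs 5′ to 3′ on the strand of its gene, with the pattern in capitals: Hspb1 is chr5:135887742-135887889, plus strand, Hspa1b chr17:34959275-34959402, minus strand, and Hspa1a chr17:34972193-34972320, minus strand, the last having the same 128 bases.
Hspb1: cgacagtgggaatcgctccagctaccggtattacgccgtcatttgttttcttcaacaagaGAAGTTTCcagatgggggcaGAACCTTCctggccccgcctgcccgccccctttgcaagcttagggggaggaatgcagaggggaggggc
Hspa1b: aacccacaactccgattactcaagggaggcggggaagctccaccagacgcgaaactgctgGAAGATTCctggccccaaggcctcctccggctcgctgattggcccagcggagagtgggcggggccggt
Hspa1a: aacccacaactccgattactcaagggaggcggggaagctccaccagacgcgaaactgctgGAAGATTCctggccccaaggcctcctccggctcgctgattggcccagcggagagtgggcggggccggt

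Of 32 interferon response genes 4 were tested, and 2 of these were past the fold downward, with a median of -1.07, or -0.37 with the same mix of clusters, Iigp1 being tested because of its AA level. Without the papilla-like and keratinocyte-gene clusters 1 of 5 was lower. Iigp1 had 9, 136 and 12 UMIs (-2.10) and was 15.6, 408 and 0 CPM in the reticular-like cluster, where AA+Ab had only 4 cells. A single AA cell of that cluster held 32.4% of the AA UMIs of Iigp1. Ifi27l2a, another interferon-induced gene, had 180, 339 and 63 UMIs (-1.33). None of 8 tested MHC class I genes was past the fold, with a median of -0.68, of -0.21 without both clusters and of -0.27 with the same mix. H2-D1, H2-K1 and B2m had log2 ratios of -0.67, -0.90 and -0.69. Stat3, the transcription factor of IL-6 type cytokines, was lower at 257, 316 and 149.6 CPM (-1.03), the only gene past the fold of 8 in its list (median -0.43), and none was past it without the papilla-like cluster, without the keratinocyte-gene cluster or without both.

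Cytokine genes for immune cells had 2 of 4 tested lower and none higher (median -0.63): Csf1, the growth factor of macrophages, at 77, 140 and 26 UMIs (-1.25), and Il13ra1, an IL-13 receptor chain tested because of its Neg level, at 43, 69 and 10 UMIs (-1.39). Without the keratinocyte-gene cluster 1 of 3 was lower (median -0.072), and without both clusters none of 5 was past the fold (-0.66). Complement genes had none past the fold of 8, with a median of -0.65, and 0.047 with the same mix of clusters. Among 5 tested chemokine genes 1 was lower (median -0.10), but without the papilla-like cluster 1 was higher and none lower (0.18), and with the same mix the median was 0.60. The lower gene was Ackr3, a scavenger receptor that removes CXCL12, at 318, 234 and 108 CPM (-1.04), with 64, 127 and 21 UMIs of 134, 221 and 50 UMIs in the fascial-like cluster.

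Cxcl12 (ENSMUSG00000061353, GRCm38 chromosome 6, bases 117168535 to 117181367, plus strand), the target of the antibody, was at 278, 443 and 412 CPM in 117, 419 and 190 UMIs and was past the fold in no comparison, with log2 ratios of 0.65 for AA against Neg, -0.10 for AA+Ab against AA and 0.55 for AA+Ab against Neg. The largest cluster, which Cxcl12 helped to define, held 46, 309 and 136 UMIs of it, at 491, 1599 and 1937 CPM there. Its receptor Cxcr4 had 0, 1 and 7 UMIs in members. AA and AA+Ab were both above Neg in that cluster.

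Of the genes with low ratios in AA+Ab, Thbs4, Hmcn2, Fbln7, Col8a1, Grm8 and Frmpd4 had most of their Neg and AA UMIs in the reticular-like cluster, which had 13, 28 and 4 cells. Thbs4, a thrombospondin of the matrix, had 158, 190 and 11 UMIs (-2.64), Hmcn2, a hemicentin of the matrix, 174, 300 and 30 UMIs (-2.13), and Fbln7, a fibulin, 34, 85 and 6 UMIs (-2.12). Col8a1, a short-chain collagen, had 37, 70 and 2 UMIs, a ratio of AA+Ab to AA with a counting interval of 0.00695 to 0.220. Grm8, a glutamate receptor (47, 119 and 4 UMIs), and Frmpd4, a scaffold protein (144, 180 and 14 UMIs), had log2 ratios of -2.86 and -2.31. In the fascial-like cluster lay 30 Neg and 89 AA UMIs of Ppp2r2b, a phosphatase subunit (57, 126 and 3 UMIs, interval of the ratio 0.00993 to 0.146), and 60 Neg and 63 AA UMIs of Nkain2 (80, 70 and 3 UMIs, -2.35, interval of the ratio 0.0177 to 0.267).

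Spread over several clusters were Ror1, a receptor for Wnt5a (86, 259 and 21 UMIs, -2.35), Prkg1, the kinase activated by cyclic GMP (257, 525 and 56 UMIs, -2.11), Arhgap24, which turns off Rac (242, 606 and 65 UMIs, -2.11), Dock11, which activates Cdc42 (58, 96 and 5 UMIs, -2.42), and Kalrn, a guanine nucleotide exchange factor (35, 76 and 4 UMIs, -2.28). In the largest cluster alone Prkg1 was at 1152, 739.9 and 413 CPM and Arhgap24 at 427, 900.3 and 313 CPM, lowest in AA+Ab for both. Contractile genes had 0 higher and 2 lower past the fold of 14 tested (median log2 ratio -0.17), these being Acta2 (-2.62) and Tagln (-1.22), both tested because of their AA level, but 3 higher and 3 lower (-0.21) without the papilla-like and keratinocyte-gene clusters.

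Collagens outside the rule had 1 higher and 2 lower past the fold of 14 tested (median log2 ratio -0.43). Col23a1, a membrane collagen, was higher at 121, 156 and 390.3 CPM (1.27), and Col5a3, a fibril collagen, lower at 339.7, 312 and 102 CPM (-1.53), as was Col8a1, which was tested because of its Neg level. Matrix glycoproteins had 2 higher and 3 lower past the fold of 28 tested (median log2 ratio -0.44). Vcan and Matn2, a matrilin (66.5, 39.2 and 121 CPM, 1.42), were the genes that were higher, while Ogn, a small proteoglycan, was at 822, 731 and 336 CPM (-1.10), Prelp, a proteoglycan that anchors basement membranes, at 178, 157 and 65.0 CPM (-1.15) and Efemp1, a fibulin, at 306, 368 and 141 CPM (-1.33). Matrix processing genes had 0 higher and 1 lower past the fold of 24 tested (median log2 ratio -0.48), namely Bmp1, which cleaves procollagen, at 147, 165 and 60.7 CPM (-1.31). Without the papilla-like and keratinocyte-gene clusters these 3 medians were 0.00089, 0.12 and -0.045, with 1 higher and 1 lower of 15 collagens, 2 and 0 of 28 glycoproteins and 1 and 2 of 25 processing genes.

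Cell cycle genes had 3 higher and 0 lower past the fold of 4 tested (median log2 ratio 1.59), but none of 2 without the papilla-like and keratinocyte-gene clusters, and a median of 0.32 with scored doublets left out. Among them were Stmn1, a microtubule regulator, with 163, 133 and 232 UMIs (1.77) and Top2a, which untangles DNA, with 24, 27 and 47 UMIs (1.54), and 2 of the 3, Top2a among them, were tested because of their AA+Ab level. The mitotic gene Cenpf had 13, 8 and 52 UMIs (2.73), 84.6% of the AA+Ab UMIs in 1 cell. Of the AA+Ab UMIs of Top2a, 40 lay in the keratinocyte-gene cluster, and Top2a turned to -0.60 with scored doublets left out. Without the keratinocyte-gene cluster alone 2 of 2 tested cell cycle genes were higher (median 1.45). Without the papilla-like cluster alone 4 of 5 were (1.81). Fabp5 was the named gene with the highest ratio, at 404, 115 and 626 UMIs (3.38), with 389 AA+Ab UMIs in that cluster and 187 in the papilla-like one, and was the lipid gene past the fold of 8 (median 0.08). In the RIPK1 list none of 3 was past the fold (median -0.33).

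**Figure D2:**
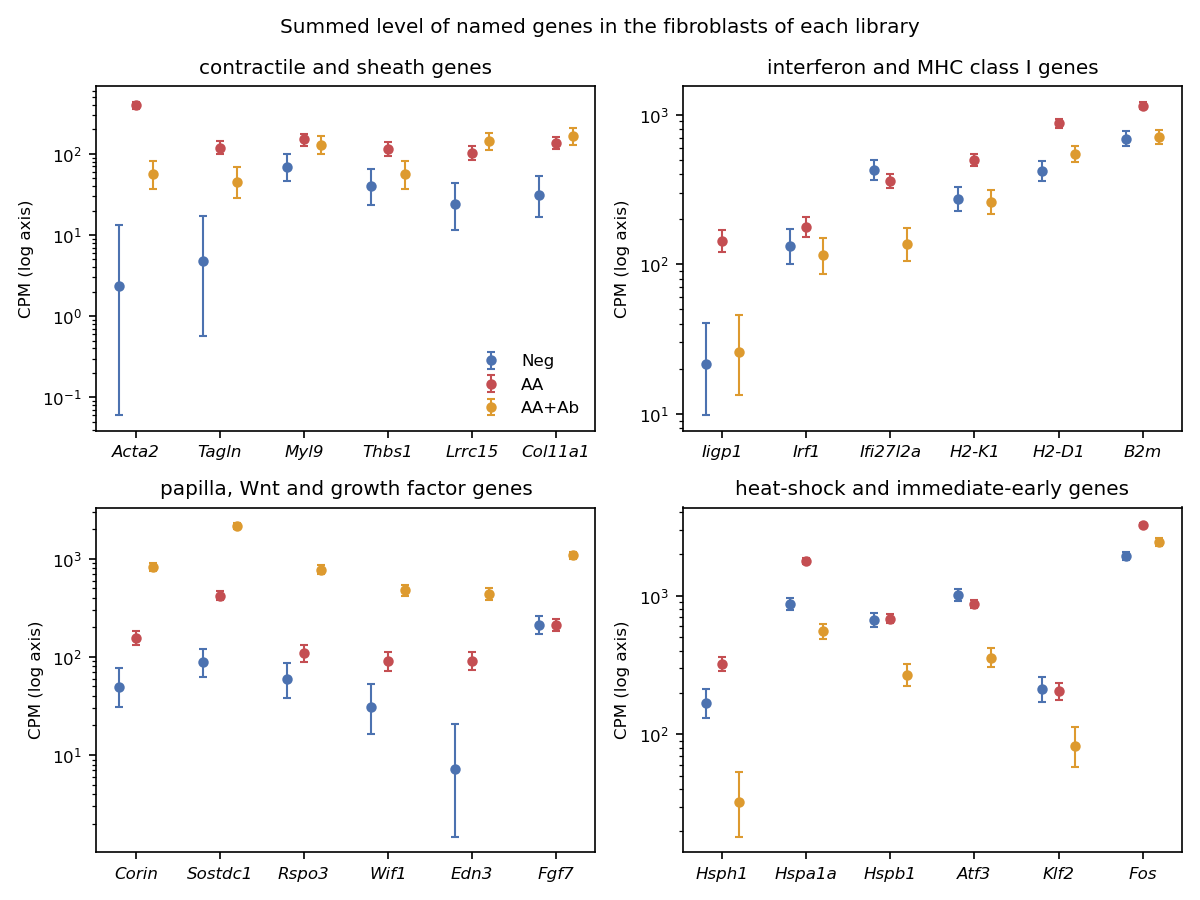
CPM of selected genes in the members of Neg, AA and AA+Ab on a log axis, with exact 95% Poisson intervals as error bars. The panels show contractile and sheath genes, interferon and MHC class I genes, papilla, Wnt and growth factor genes, and heat shock and immediate-early genes. Corin and Sostdc1 stand highest in AA+Ab, Acta2, Iigp1 and Hsph1 in AA.

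How far treated fibroblasts stand from those of unaffected skin is the question of AA+Ab against Neg, which shares a library with each comparison above, so its values are set beside theirs and not counted as support. AA+Ab members held more RNA of the papilla genes Corin and Sostdc1 and of the sheath gene Acta2 than Neg members, and less of Thbs4 and Nkain2. Barcodes with sheath markers taken without the rule held less Acta2 in AA+Ab than in Neg, as given in the last paragraph. They held more Tagln, at 792 CPM in Neg and 1205 CPM in AA+Ab, and both genes are among the markers that chose them. Edn3 (ENSMUSG00000027524, GRCm38 chromosome 2, bases 174760619 to 174784042, plus strand) had 3, 86 and 201 UMIs and was 61.2-fold higher (95% counting interval 20.6 to 299) in AA+Ab than in Neg members. That ratio rests on 3 Neg UMIs, while Neg barcodes with papilla markers held 20 UMIs of Edn3, 17 of them outside the rule, at 436 CPM against 1093 CPM in AA+Ab. Past the fold were 166 genes upward (4.33% of those tested) and 275 downward (7.18%), and 74 and 51 of them reach the mean of 50 CPM through their highest library alone. Without the papilla-like cluster 88 were higher and 223 lower, and with the same mix of clusters 80 and 169.

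Of 16 Wnt, BMP and hedgehog genes 12 were higher and 1 lower, with a median of 1.60 beside -0.01 over all tested genes. Log2 ratios were 4.02 for Hhip, 3.58 for Wif1 and 3.50 for Rspo3, and outside the list 3.80 for Corin and 4.48 for Sostdc1. AA levels lay between those of Neg and AA+Ab for all of these, and Hhip was tested because of its AA+Ab level. Once the papilla-like cluster was left out, 3 were higher and 1 lower of 12 and the list median was 0.35, and it was -0.10 with at least 4 rule markers. Growth factors for the follicle had 8 higher and 1 lower past the fold of 17 tested (median log2 ratio 0.87), but 3 and 0 of 14 (0.13) without the papilla-like cluster, and a median of -0.012 with at least 4 rule markers. Of the 8, Edn3, Nrg2 and Ptn were tested because of their AA+Ab level. Igfbp2, with no UMI in Neg, was at least 29.2-fold higher against the floor of 3 counts (lower limit of the counting interval 23.3), but 81.2% of its 96 AA+Ab UMIs came from 1 cell. Fgf7 (2.30) and Igfbp4 (1.48) were higher, and Igfbp6, which binds IGF-II, was lower at 1083, 872 and 434 CPM (-1.30).

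Prlr (4.13), Chodl (4.62), Rbfox1 (3.22), Kcnq3 (3.20), Ptprz1 (2.73) and Nrg2 (2.70) were higher as well, with ratio intervals of 13.7 to 200.2 for Prlr and 21.9 to 4938 for Chodl. Also higher was Ecrg4, a secreted peptide precursor, at 10, 64 and 157 UMIs (3.38). Serpine2, a protease inhibitor, had 9, 80 and 125 UMIs (3.16), 48 and 70 of the AA+Ab UMIs lying in the sheath-like and the papilla-like cluster. Without the papilla-like cluster the log2 ratios of Ecrg4, Rbfox1, Nrg2 and Vcan were below 0. In the other members of all libraries together Ecrg4 was at 6.94 and Nrg2 at 5.05 CPM, so their signs rest on few UMIs. The contractile and TGF-beta list had 5 higher and 0 lower past the fold of 14 tested (median log2 ratio 0.82), with Acta2 at 2.42 (interval of the ratio 3.90 to 973), Tagln at 1.91 (2.34 to 84.3), Lrrc15 at 2.18 and Postn, a matrix protein of activated fibroblasts, at 216, 352 and 486 CPM (1.13). Col11a1, in sheath-like and papilla-like cells, had a log2 ratio of 2.10. AA and AA+Ab thus stood on the same side of Neg for these genes, Acta2 resting on a single Neg UMI, and Acta2 and Tagln were tested because of their AA level.

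Matrix glycoproteins had 3 higher and 6 lower past the fold of 28 tested (median log2 ratio -0.16), collagens outside the rule 2 higher and 2 lower past the fold of 14 tested (median log2 ratio -0.55) and matrix processing genes 0 higher and 5 lower past the fold of 24 tested (median log2 ratio -0.44). Of the 2 lower collagens, Col8a1 was tested because of its Neg level. Without the papilla-like cluster the glycoproteins had 2 higher and 0 lower (median 0.11), and without the papilla-like and keratinocyte-gene clusters 3 and 0 (0.16), so none of the 6 stayed past the fold. Collagens then had 1 higher and 2 lower (-0.33) and matrix processing genes 2 and 5 (-0.34). Fap, a surface protease of fibroblasts, was lower at 413, 301 and 167 CPM (-1.26), as was Plau, the urokinase that activates plasminogen, at 42, 52 and 7 UMIs (-2.12). Thbs4 (-3.51), Hmcn2 (-2.50), Tll1 (-2.67), Frmpd4 (-3.13), Grm8 (-2.70), Kalrn (-2.32), Dock11 (-2.83) and Prkg1 (-2.24) were lower, and except for Tll1 the CPM of AA was nearer in ratio to Neg than to AA+Ab. For Thbs4, 73.4% of the Neg UMIs came from 1 cell. Genes with 3 or fewer AA+Ab UMIs were Nkain2 (ratio interval 0.00691 to 0.104), Ppp2r2b (0.00962 to 0.148) and Col8a1 (0.00576 to 0.191). Smpd3, a sphingomyelinase and the leading gene of the fascial-like cluster, had 89, 96 and 17 UMIs (-2.24), Akr1c14, a steroid-converting reductase, 70, 75 and 12 UMIs (-2.29), and Mid1, a microtubule-bound ubiquitin ligase, 122, 182 and 27 UMIs (-2.13).

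The interferon response list had 0 higher and 1 lower past the fold of 4 tested (median log2 ratio -0.43), interferon receptors and JAK-STAT 0 higher and 2 lower past the fold of 8 tested (median log2 ratio -0.69), and cytokines 0 higher and 2 lower past the fold of 4 tested (median log2 ratio -0.94). Ifi27l2a was at 428, 359 and 137 CPM (-1.58) and Csf1 at 183, 148 and 56.4 CPM (-1.54). The other lower cytokine gene, Il13ra1, was tested because of its Neg level. Chemokines had 0 higher and 1 lower past the fold of 5 tested (median log2 ratio -0.67), the gene being Ackr3 (-1.47), and 3 higher and 2 lower of 7 (0.95) without the papilla-like and keratinocyte-gene clusters. With both out, the interferon response list had none past the fold of 5 (-0.25), the receptor list 1 higher and 2 lower of 8 (-0.39) and cytokines 0 and 3 of 5 (-1.06). MHC class I had none past the fold of 8 (median -0.03) and complement none of 8 (-0.33, or 0.057 without both clusters). Lipid genes had 0 higher and 1 lower past the fold of 8 tested (median log2 ratio 0.51), Lpl, the lipoprotein lipase, being lower at 777, 443 and 278 CPM (-1.45). Immediate-early and heat shock genes had 0 higher and 4 lower past the fold of 22 tested (median log2 ratio -0.57), and 1 and 1 (0.36) without both clusters. Cell cycle genes had none past the fold of 4 (0.54) and the RIPK1 list none of 3 (0.06).

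**Figure D3:**
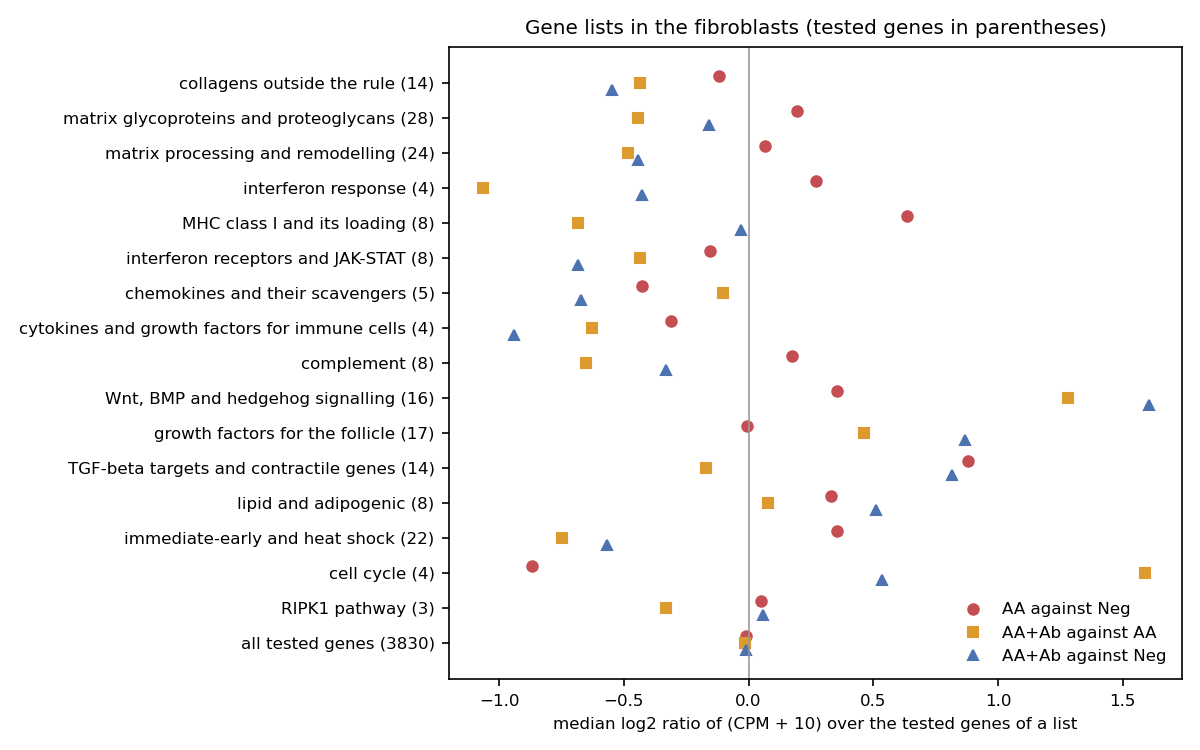
Median log2 ratio of each gene list in the 3 comparisons, with the number of tested genes of the list in parentheses. The Wnt, BMP and hedgehog list stands at 0.35, 1.28 and 1.60 in AA against Neg, AA+Ab against AA and AA+Ab against Neg.

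The papilla gene Corin and the sheath gene Lrrc15 were near 0 in the other barcodes. How much free RNA the members carry was not tested. Barcodes with at least 1% keratin and Ptprc barcodes held Corin at 0.0705, 0.0571 and 0.229 CPM and 0.353, 0 and 0.285 CPM, and Lrrc15 at 0.0282, 0.0685 and 0.0604 CPM and 0, 0 and 0 CPM. Sostdc1 was present outside members, at 133, 115 and 176 CPM in barcodes with at least 1% keratin, and Fabp5 was at 1341, 959 and 1169 CPM in Ptprc barcodes against 959.8, 122 and 1357 CPM in members. H2-D1 was at 636, 1137 and 760.5 CPM in Ptprc barcodes.

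Barcodes with papilla or sheath markers also lie outside the rule, and they were counted after the results above were seen. With at least 2 UMIs in each of at least 3 papilla markers, whatever their rule markers, there were 7, 25 and 28 barcodes (0.106, 0.240 and 0.285% of those kept), of which 3, 10 and 13 were members. Over all of these barcodes Sostdc1 stood at 1789.7, 1982 and 4740.0 CPM, Edn3 at 436, 462 and 1093 CPM, Fgf7 at 2248, 1000.5 and 2632 CPM, Crabp1 at 2749.9, 1954 and 2131 CPM and Lef1 at 895, 925 and 689 CPM, so the order of the libraries differed between genes. Corin, one of the markers that chose the barcodes, stood at 1637, 845 and 1841 CPM, with overlapping intervals for Neg and AA+Ab (1288 to 2052 and 1678 to 2015). In the barcodes that were not members Sostdc1 was at 1739, 455 and 2251 CPM, Edn3 at 643, 174 and 848 CPM, Fgf7 at 2154, 761 and 2146 CPM and Corin at 2041, 439 and 1099 CPM, lowest in AA for each, and Corin was lower in AA+Ab than in Neg. Hspa1a was at 960.3, 1439 and 235 CPM over all of them. Sheath markers taken the same way gave 16, 10 and 8 barcodes (0.243, 0.0958 and 0.0814% of those kept), of which 1, 7 and 2 were members. Over all of them Acta2 was at 1606, 3480 and 987 CPM and Tagln at 792, 1293 and 1205 CPM, both being markers that chose the barcodes. Outside members Acta2 had 590, 24 and 173 UMIs. Neg skin thus had Acta2-rich barcodes that the rule left out, whose pericyte markers summed to 543, 128 and 327 CPM and keratinocyte markers to 2545, 2284 and 2534 CPM, and the low Acta2 of Neg members holds only for cells that meet the rule. How many of those barcodes are sheath cells was not tested.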

How the data were processed

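Per the deposited records, the authors built 10x Genomics 3′ v3.1 libraries, checked reads with FastQC 0.11.7 and used Cell Ranger 7.2.0 (mm10) to obtain the UMI count of each gene and barcode, and those deposited count matrices of 32285 genes were used, with no column left out. The scripts used matplotlib 3.10.9, leidenalg 0.10.2, python-igraph 0.11.9, scikit-learn 1.9.0, scipy 1.17.1, numpy 2.4.6 and pandas 2.3.3 under Python 3.11.15.

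For each gene the UMIs of the members of a library were added up and scaled to 1000000 UMIs of those members (CPM). Ratios use CPM plus 10, and intervals are exact for 2 Poisson counts. Members were clustered on log counts per 10000, 2000 variable genes and 15 principal components (Leiden, resolution 0.8, no integration). Doublets were scored but not left out in the main analysis. The ratios were tested on simulated data with set changes in some genes and counting noise as the only noise. Every set change was at least 3-fold up or down, so ratios near the 2-fold limit were not covered. For AA against Neg, AA+Ab against AA and AA+Ab against Neg, 170 of 175, 175 of 179 and 171 of 179 changed genes were past the fold. Of the unchanged genes 1 of 3644, 3 of 3646 and 5 of 3635 were.

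Named are genes of 17 function lists and the 15 genes with the largest ratios in each direction and comparison, without ribosomal, mitochondrial, hemoglobin, keratin, rule and unnamed genes. Some lower genes were also left out for their level in barcodes with at least 5% keratin. They were Fgfbp1 and Sfn for AA against Neg and Ly6d for AA+Ab against AA. For AA+Ab against Neg they were Fgfbp1, Ly6d, Anxa8 and Lgals7. Members and lists were chosen with earlier results of these data known. For the values above, the barcodes with at least 5% keratin were too few to use and gave way to those with at least 1%. The latter, the barcodes outside the rule and the left-out clusters were chosen after seeing the data.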

Additional observations from a re-analysis of the deposited data

How the results depend on the processing

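Each group is 1 pool of skin and 1 library, so animal, digestion, run and group cannot be told apart. No paired analysis was possible because each group has only 1 library. Neg rests on 43 members and on 3 cells of the dermal papilla-like cluster, and summed values of members mix the level in a cell with the share of each kind of cell.

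A gene count is called moved when it left the main count by over 1.5 times, and any other value when it left its counting interval, which for a list median is the median of the intervals of its genes. Under the planned choices 1167 gene ratios stayed, 355 moved and 17 of genes past the fold changed sign. Of the 171 ratios of each choice, the same mix of clusters moved 118 and turned 4, thinning moved 83, equal weight of cells 62, and at least 4 rule markers moved 49 and turned 7, while the pseudocount and the denominator moved none. Ratios that moved and kept their sign are not listed below. Of the list medians 386 stayed and 46 moved, of the counts 48 and 18, of the shares of barcodes 10 and 2, and of the shares in clusters 106 and 5. Under the choices added after seeing the data 329 gene ratios stayed, 146 moved and 38 changed sign. A pseudocount of 1 CPM and a resolution of 1.2 moved none of these values.

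With at most 5% mitochondrial UMIs, the share of members in the dermal papilla-like cluster became 0% in Neg. Log2 ratios that changed sign were 0.15 for Nrg3, 1.37 for Ncam2 and 2.70 for a in AA against Neg. With at least 4 rule markers, the share of members became 0.997% in AA and 0.366% in AA+Ab. The share of members in the dermal sheath-like cluster became 8.65% in AA. Genes past the fold became 104 higher in AA+Ab against Neg. List medians became -0.042 for chemokines in AA against Neg, 0.078 for Wnt signalling and -0.21 for lipid genes in AA+Ab against AA, and 0.20 for chemokines, -0.10 for Wnt signalling and -0.012 for follicle growth factors in AA+Ab against Neg. Genes past the fold that changed sign had log2 ratios of 1.15 for Ncam2, 0.35 for a and -0.16 for Vcan in AA against Neg, -1.95 for Kcnip4, -0.22 for Kcnq3 and -0.83 for Mgat4c in AA+Ab against AA, and -0.21 for Rbfox1 in AA+Ab against Neg. With keratin under 0.5%, list medians became 0.91 for immediate-early and heat shock genes in AA against Neg, -0.11 for cytokines in AA+Ab against AA, and -0.37 for cytokines and -0.14 for immediate-early and heat shock genes in AA+Ab against Neg. With scored doublets left out, list medians became 0.0019 for cell cycle in AA against Neg, 0.36 for lipid genes and 0.32 for cell cycle in AA+Ab against AA, and -0.13 for immediate-early and heat shock genes in AA+Ab against Neg. Gene ratios on the other side of 0 were 0.036 for Cux1 and 0.31 for Stmn1 in AA against Neg, and -0.60 for Top2a in AA+Ab against AA.

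With each cell weighted equally, list medians became -0.13 for collagens, 0.011 for matrix glycoproteins, -0.21 for matrix processing, -0.47 for interferon response and 0.87 for cell cycle in AA+Ab against AA, and 0.68 for follicle growth factors in AA+Ab against Neg. With mitochondrial, ribosomal, hemoglobin and collagen genes out of the denominator, list medians became -0.47 for chemokines in AA+Ab against AA, and -0.084 for chemokines in AA+Ab against Neg. With members thinned to 2000 UMIs, genes past the fold became 111 lower in AA against Neg. List medians became -0.18 for collagens, -0.016 for matrix glycoproteins, -0.14 for matrix processing and 0.47 for cell cycle in AA+Ab against AA, and -0.16 for chemokines and -0.22 for cell cycle in AA+Ab against Neg. With genes tested from a mean of 20 CPM, genes past the fold became 141 higher and 125 lower in AA against Neg, 330 higher and 374 lower in AA+Ab against AA and 328 higher and 470 lower in AA+Ab against Neg. With genes tested from a mean of 100 CPM, genes past the fold became 33 higher and 22 lower in AA against Neg, 93 higher and 127 lower in AA+Ab against AA and 80 higher and 154 lower in AA+Ab against Neg. With a cluster resolution of 0.4 there were 5 clusters, and the one named dermal sheath-like held the 36 sheath-like cells, all 24 papilla-like cells and 13 of 14 cells of the keratinocyte-gene cluster, which is 20.9% of members in Neg, 29.3% in AA and 51.0% in AA+Ab. At that resolution no papilla-like cluster was found. Thinning left out 2, 5 and 1 members with fewer UMIs than that.

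With the same mix of clusters in every library, genes past the fold became 41 higher and 113 lower in AA+Ab against AA and 80 higher and 169 lower in AA+Ab against Neg. List medians became -0.049 for chemokines and 0.43 for TGF-beta and contractile genes in AA against Neg, -0.16 for collagens, 0.14 for matrix glycoproteins, 0.087 for matrix processing, -0.37 for interferon response, -0.27 for MHC class I, 0.60 for chemokines, 0.047 for complement, 0.42 for Wnt signalling and 0.90 for cell cycle in AA+Ab against AA, and -0.036 for collagens, -0.063 for matrix processing, 0.63 for chemokines, -0.38 for cytokines, 0.40 for complement, 0.60 for Wnt signalling and 0.20 for follicle growth factors in AA+Ab against Neg. Log2 ratios that changed sign were -0.052 for Inhba, -0.27 for Lef1, -0.33 for Vcan and -0.25 for Col23a1 in AA+Ab against AA. Among genes past the fold, 56.1% were higher in AA against Neg and 45.6% in AA+Ab against AA, against 42.2% after thinning for AA against Neg and 26.6% with the same mix for AA+Ab against AA.

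The choices of leaving out clusters were made after seeing the data. Without the keratinocyte-gene cluster, list medians became -0.36 for collagens and 0.89 for immediate-early and heat shock genes in AA against Neg, -0.072 for cytokines in AA+Ab against AA, and -0.35 for cytokines, -0.083 for immediate-early and heat shock genes and 1.21 for cell cycle in AA+Ab against Neg. Genes past the fold that changed sign had log2 ratios of 0.027 for Cux1 and 0.027 for Stmn1 in AA against Neg. Without the dermal papilla-like cluster, genes past the fold became 111 higher in AA+Ab against AA and 88 higher in AA+Ab against Neg. List medians became -0.21 for collagens, -0.026 for matrix glycoproteins, -0.21 for matrix processing, 0.18 for chemokines, -0.19 for complement and 0.14 for Wnt signalling in AA+Ab against AA, and -0.27 for chemokines, 0.35 for Wnt signalling and 0.13 for follicle growth factors in AA+Ab against Neg. Gene ratios on the other side of 0 were 1.07 for Ncam2, 0.50 for a and -0.16 for Vcan in AA against Neg, -0.0093 for Nrg2, -0.023 for Ptprz1, -1.85 for Kcnip4, -1.09 for Kcnq3, -1.02 for Rspo3, -0.16 for Adgrb3, -0.60 for Chodl, -0.75 for Mgat4c, -0.37 for Inhba, -0.16 for Lef1 and -0.69 for Sostdc1 in AA+Ab against AA, and -0.32 for Ecrg4, -0.17 for Rbfox1, -0.58 for Nrg2 and -0.16 for Vcan in AA+Ab against Neg. Adgrb3, Nrg2, Rspo3 and Ecrg4 had few UMIs outside the papilla-like cluster, so the signs of these ratios say little. Without the papilla-like and keratinocyte-gene clusters, genes past the fold became 56 higher and 145 lower in AA+Ab against AA. List medians became -0.35 for collagens, -0.050 for chemokines, 0.92 for immediate-early and heat shock genes and -0.23 for cell cycle in AA against Neg, 0.00089 for collagens, 0.12 for matrix glycoproteins, -0.045 for matrix processing, -0.53 for interferon response, -0.21 for MHC class I, 0.19 for chemokines, -0.075 for complement, 0.11 for Wnt signalling and 0.69 for cell cycle in AA+Ab against AA, and 0.95 for chemokines, 0.057 for complement, 0.44 for Wnt signalling, 0.18 for follicle growth factors and 0.36 for immediate-early and heat shock genes in AA+Ab against Neg. Log2 ratios that changed sign were 0.14 for Cux1, 1.12 for Ncam2, 0.56 for a, 0.026 for Stmn1 and -0.41 for Vcan in AA against Neg, -2.05 for Kcnip4, -0.97 for Kcnq3, -0.63 for Rspo3, -0.19 for Adgrb3, -0.54 for Chodl, -0.75 for Mgat4c, -0.24 for Inhba, -0.20 for Lef1 and -0.44 for Top2a in AA+Ab against AA, and -0.41 for Ecrg4, -0.20 for Rbfox1, -0.68 for Nrg2 and -0.25 for Vcan in AA+Ab against Neg. Settings that leave out clusters or weigh them alike take away the share of the clusters by construction. For every other value in these paragraphs the cause was not tested.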

Other observations

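Markers of fibroblast kinds that the comparisons above do not cover also differed between the libraries. In Neg, AA and AA+Ab, papillary markers, of the upper dermis, summed to 447, 594 and 963 CPM, reticular markers, of the lower dermis, to 3307, 3046 and 2073 CPM, and fascial and adventitial markers, of the layer under the skin and around vessels, to 4858, 4757 and 2528 CPM. AA+Ab was the highest for the papillary sum and the lowest for the other sums. The papillary markers do not single out upper fibroblasts here: 5 of 7 were at least 2-fold over the other members in the dermal papilla-like cluster, where they summed to 2199 CPM, and barcodes with at least 1% keratin held 421, 324 and 322 CPM of them and Ptprc barcodes 397, 349 and 335 CPM. How far this follows from the shares of the clusters was not tested.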
